A study of Zea mays with 6 samples.

Results

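The genes described here were annotated as wall glycoproteins and related proteins, and their transcripts were measured in the maize ovary. They were found in the deposited expression table as rows with no transcription factor family whose description names an arabinogalactan, fasciclin, extensin, hydroxyproline-rich, proline-rich or glycine-rich cell wall protein, or whose *Arabidopsis* match has an FLA, AGP, LRX or EXT symbol. This gave 64 of 25368 rows, 52 by description, 22 by symbol and 10 of these by both. They fell into 7 protein types, of which the fasciclin-like arabinogalactan proteins (18), other arabinogalactan proteins and peptides (3) and extensins with extensin-like proteins (11) together held 32. The other 32 were proline-rich proteins (18), APG-like proteins (7), hydroxyproline-rich glycoproteins (4) and glycine-rich cell wall proteins (3). The descriptions of 13 members name proteins of another kind, since 6 extensin-like rows are receptor kinases and the 7 APG-like rows carry a hydrolase term for ester bonds. Further rows may not be wall proteins, since a word in the description placed them and this was not checked. Among these, GRMZM2G320708 is also described as late embryogenesis abundant, and GRMZM2G174736 as a basic salivary proline-rich protein.

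Ovaries with incompletely fused carpels (*ifc*, labelled IFC mutant) were compared with wild type (WT) ovaries to ask which transcripts differ when the carpels fail to close over the ovule. Each group had 3 libraries, taken from 3 ear rows. All ovaries came from the inbred line Yu-A474, grown in the field without stress and collected before pollination, and had the glumes, lemma and palea removed. A normal ovary was taken from beside each *ifc* ovary in the middle of an ear, so WT and *ifc* are ovary phenotypes of 1 inbred line, and the labels' genotype names go with the phenotype. The table gives each row 1 FPKM (fragments counted per length of transcript and per depth of sequencing) for *ifc* and 1 for WT, made from the pooled reads of the 3 libraries. These values have no replicate error and the table gives no read depth, so no test was run and each difference below describes the pooled values.

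Arabinogalactan proteins are secreted proteins whose hydroxyproline residues carry branched chains of galactose and arabinose. The fasciclin-like ones also hold fasciclin domains, which serve in cell adhesion in animals, and many are anchored to the outer face of the plasma membrane by a lipid. Extensins are hydroxyproline-rich rods that carry short arabinose chains and can be cross-linked into a network within the wall. Such proteins are known from pistil tissues, where they lie at cell surfaces and in the matrix that pollen tubes grow through.

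The values were used on the authors' scale. The row GRMZM2G070931 was listed at 877143 FPKM in WT and at 0 in *ifc* and made up 55.6% of all FPKM in WT. Setting the phenotypes to equal totals therefore gave a median log2 ratio over all rows of 1.00, or -0.06 with that row left out, where it was -0.02 as deposited. Under equal totals the median of each of the 7 types was above 0. Those of the extensin, hydroxyproline-rich and proline-rich types and of the hybrid proline-rich group turned positive, where they were negative as deposited. So did those of the enzymes that extend or cap arabinogalactan chains or add arabinose to extensins. With that row left out these stayed negative, while the small positive medians of the arabinogalactan peptides and of the prolyl 4-hydroxylases turned negative. The fasciclin-like median was 1.32 under equal totals and 0.31 with that row left out.

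Most of the members that were higher in *ifc* past the fold used here were fasciclin-like genes, while the median of the other members lay close to that of the table. A row was counted when its FPKM differed by more than 1.5-fold and was above 2 in *ifc* or WT. Of the 53 members with such an FPKM, 9 were counted as higher in *ifc* (17.0%) and 1 as lower (1.89%), while over all 21093 such rows 4.13% were higher and 2.55% lower. Of the 9, 7 were fasciclin-like, 1 was an arabinogalactan peptide and 1 was APG-like. The median log2 ratio of FPKM + 1 was 0.01 over the 53 members and -0.02 over all rows, so the middle of the members lay close to that of the table. The median was 0.35 over the 16 fasciclin-like members with an FPKM above 2 and -0.02 over the 37 others, of which 2 were counted higher and 1 lower. A member just above 2 FPKM in only 1 phenotype passes more readily when it differs. With an FPKM above 2 in *ifc* and in WT alike, 8 of 51 members and 6 of 15 fasciclin-like members were higher past the fold and 0 members were lower, against 3.01% and 1.93% of the 20195 rows of the table.

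**Figure D1:**
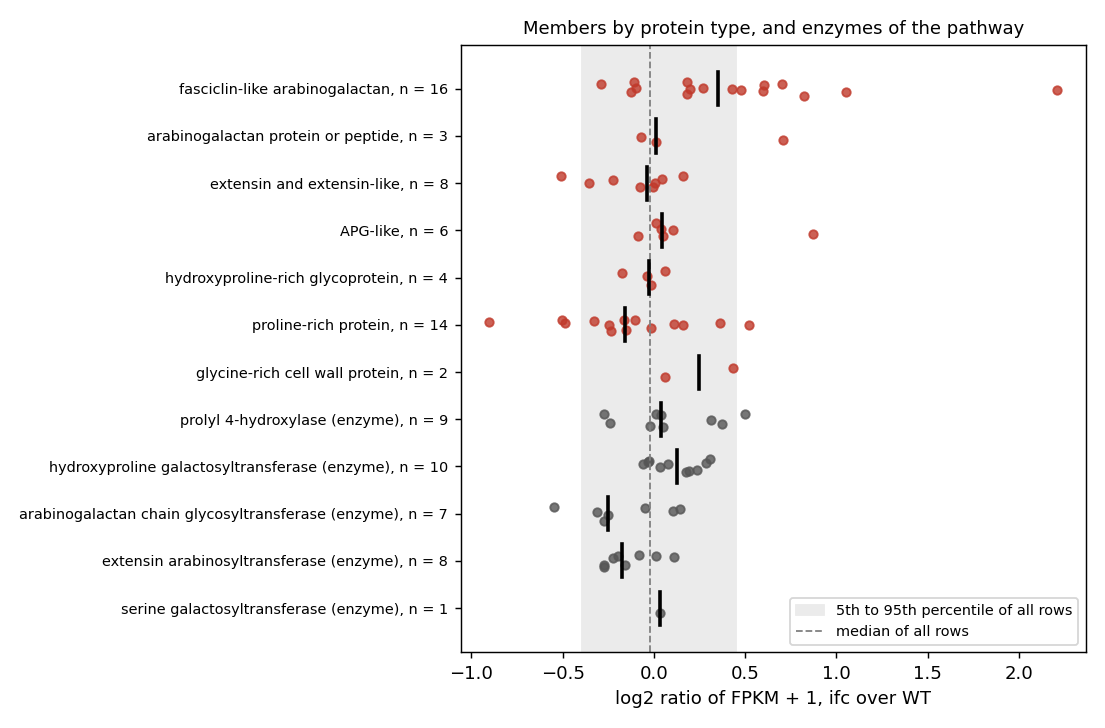
Log2 ratio of FPKM + 1, *ifc* over WT, for each member with an FPKM above 2 (red, by protein type) and for the enzymes that modify these proteins (grey), with a black bar at the median of each group. The fasciclin-like median lies at 0.35 and reaches 2.21 at its highest point, while the shaded band from -0.39 to 0.45 holds the rows between percentiles 5 and 95 of the table.

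GRMZM2G144610, whose closest *Arabidopsis* match is FLA2, had the highest fold among the members with an FPKM above 2. Its FPKM was 93.2 in *ifc* and 19.4 in WT, a 4.81-fold difference and 2.21 on the log2 scale of FPKM + 1. The gene lies on chromosome 9 at 37552322 to 37553942 on the plus strand (B73 RefGen_v3, as the table lists it), its description reads endosperm specific protein, and a RefSeq synonym is endo1. The ovaries were collected before pollination, when no endosperm has formed. Among the fasciclin-like members it ranked 3 in *ifc* and 10 in WT. Over all rows with an FPKM above 2 its rank was 49 by fold and 84 by the difference in FPKM. The other FLA2 match, a row listed under GRMZM2G084812 and GRMZM6G949474, had the highest level of the type at 122 FPKM in *ifc* and 106 FPKM in WT, 1.15-fold higher. The FLA2 matches thus held 1 row far apart between the phenotypes and 1 row close to equal.

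The FLA11 and FLA10 matches followed. In *Arabidopsis*, FLA11 is best known from stems, where it is expressed as secondary walls form. GRMZM2G025240 (FLA11 match, chromosome 8 at 69105612 to 69106093, plus strand) had 86.5 FPKM in *ifc* and 41.2 FPKM in WT, 2.1-fold higher. GRMZM2G022931 (FLA11 match, chromosome 3 at 210588268 to 210590012) had 21.4 FPKM in *ifc* and 13.8 FPKM in WT, 1.55-fold higher. The third FLA11 match, GRMZM2G177242, stayed under the FPKM limit at 1.57 in *ifc* and 1.46 in WT. FLA10 belongs to the widely expressed fasciclin-like proteins of *Arabidopsis*, and both of its matches were past the fold. GRMZM2G003752 (chromosome 2 at 16230476 to 16232542) had 64.7 FPKM in *ifc* and 39.4 FPKM in WT, 1.64-fold higher. GRMZM2G065718 (chromosome 1 at 5946642 to 5948328) had 24.7 FPKM in *ifc* and 15.9 FPKM in WT, and at 1.55-fold it was the member just inside the limit. Summed by match, FLA11 rows came to 109 FPKM in *ifc* and 56.4 in WT, and FLA10 rows to 89.4 FPKM in *ifc* and 55.3 in WT.

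The FLA1 and FLA7 matches each had 1 gene past the fold beside a more abundant gene that was not. GRMZM2G301908 (FLA1 match, chromosome 4 at 197852910 to 197854441) had 35.3 FPKM in *ifc* and 19.5 FPKM in WT, 1.81-fold higher and the third widest ratio of the type with an FPKM above 2. GRMZM2G133053, the abundant FLA1 match, had 85.6 FPKM in *ifc* and 75.3 FPKM in WT, 1.14-fold higher. GRMZM2G174799 (FLA7 match, chromosome 7 at 132113568 to 132115658) had 2.22 FPKM in *ifc* and 1.39 FPKM in WT, 1.59-fold higher, and it met the FPKM limit through *ifc* alone. The abundant FLA7 match, AC234156.1_FG005, had 101 FPKM in *ifc* and 89.4 FPKM in WT, 1.13-fold higher. In the FLA1, FLA2 and FLA7 groups the row past the fold was therefore less abundant than the leading row, while both FLA10 matches were past it.

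The remaining fasciclin-like members were within 1.5-fold, and most of them were not selected by the rule for named genes. The FLA16 match GRMZM2G329181 came nearest to the limit, with 52.2 FPKM in *ifc* and 37.2 FPKM in WT. The 4 members with an FPKM above 2 that were lower in *ifc* included the FLA17 match GRMZM2G027825, at 61.8 FPKM in *ifc* and 66.7 FPKM in WT. The FLA6 matches GRMZM2G001514 and GRMZM2G051185 were also lower in *ifc*, at 32.8 and 7.29 FPKM in *ifc*, against 35.2 and 9.12 FPKM in WT. The third FLA6 match, GRMZM2G021794, had 20.2 FPKM in *ifc* and 16.5 FPKM in WT. The summed FLA6 level was nearly equal at 60.3 FPKM in *ifc* and 60.9 FPKM in WT. The FLA1 match GRMZM2G403276 was lower at 2.05 FPKM in *ifc* and 2.32 FPKM in WT, and the FLA14 match GRMZM2G177142 had 0.845 FPKM in *ifc* and 0.673 FPKM in WT, under the FPKM limit. Thus 12 of the 16 were higher and 4 lower in *ifc* at any size, where 45.9% of all rows with an FPKM above 2 were higher.

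**Figure D2:**
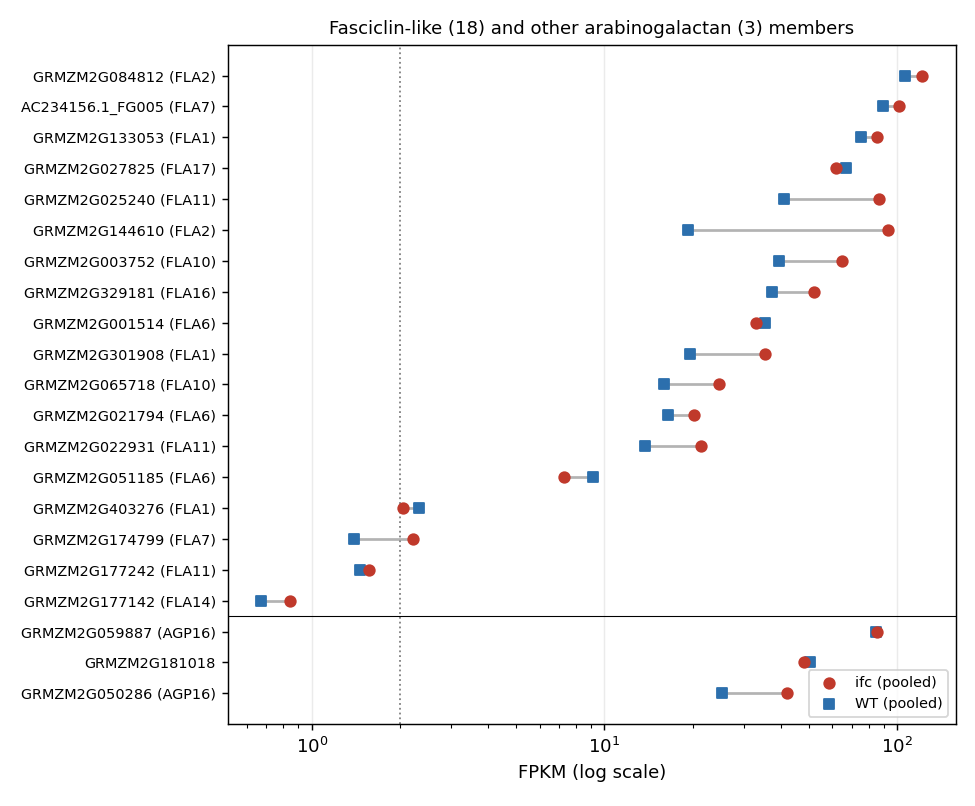
FPKM on a log axis of each fasciclin-like (above the line) and other arabinogalactan member (below it) in pooled *ifc* (circles) and pooled WT (squares), with the *Arabidopsis* match in brackets, rows in order of mean FPKM within each type and a dotted line at 2 FPKM. The widest gap is that of GRMZM2G144610, at 93.2 in *ifc* and 19.4 in WT, while the 3 rows at the top, GRMZM2G084812, AC234156.1_FG005 and GRMZM2G133053, lie within 1.15-fold.

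The summed level of the 18 fasciclin-like genes was 816 FPKM in *ifc* and 591 FPKM in WT, a ratio of 1.38. GRMZM2G144610 made up 11.4% of the sum in *ifc* and 3.28% in WT, and 32.8% of the difference of 225 FPKM. The 7 members past the fold accounted for 178 FPKM of the difference and the other 11 for 47.6 FPKM. Without GRMZM2G144610 the sum was 723 FPKM in *ifc* and 571 FPKM in WT, the median log2 ratio was 0.27, and 6 of 15 members with an FPKM above 2 were higher past the fold. The difference was therefore spread over several genes, but unevenly. Among the 7 past the fold, GRMZM2G144610 added 73.8 FPKM and GRMZM2G025240 45.3 FPKM, while GRMZM2G174799 added 0.828 FPKM. These 7 lie on 7 chromosomes.

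**Figure D3:**
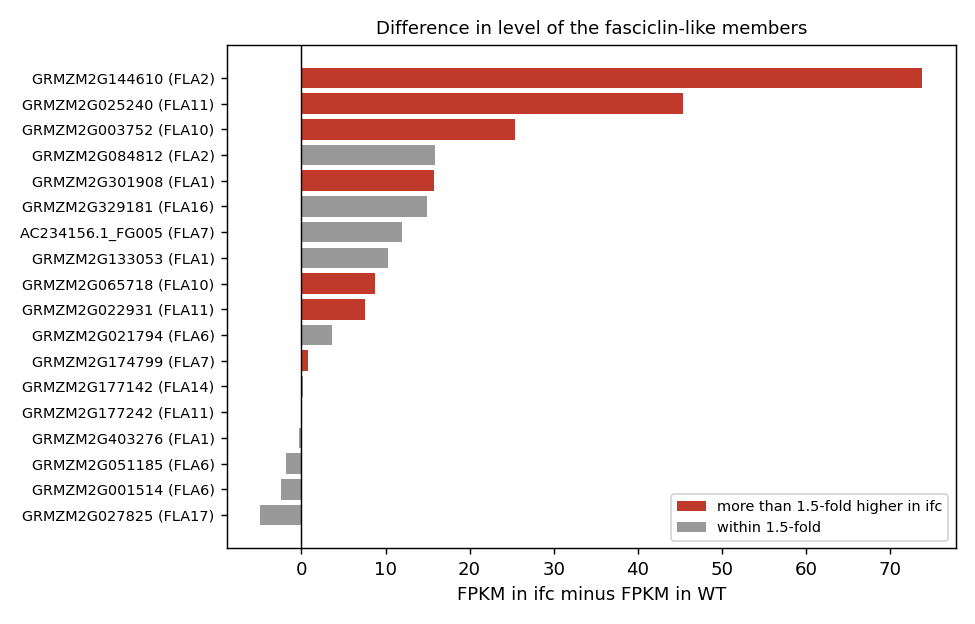
FPKM in *ifc* minus FPKM in WT for the 18 fasciclin-like members, with bars in red for the 7 that were more than 1.5-fold higher in *ifc* with an FPKM above 2. GRMZM2G144610 adds 73.8 FPKM and GRMZM2G025240 45.3 FPKM, and the lowest bar is that of GRMZM2G027825 at -4.88 FPKM.

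The other arabinogalactan genes included a pair of matches to AGP16, which encodes a short arabinogalactan peptide in *Arabidopsis*, and they differed from each other. GRMZM2G050286, described as AGP20 and lying on chromosome 8 at 111836761 to 111837849 on the minus strand, had 42.0 FPKM in *ifc* and 25.3 FPKM in WT, 1.66-fold higher. GRMZM2G059887, described as AGP16, had nearly equal levels of 85.3 FPKM in *ifc* and 84.7 FPKM in WT. GRMZM2G181018, described only as an arabinogalactan protein, had 48.0 FPKM in *ifc* and 50.5 FPKM in WT. The AGP16 match that differed was the less abundant one.

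Of the 11 extensin and extensin-like members, 8 had an FPKM above 2, of which 0 were past the fold, where 4.13% of all such rows were higher and 2.55% lower. At any size 3 of the 8 were higher and 5 lower, where 45.9% of all rows with an FPKM above 2 were higher. The median log2 ratio of the 8 was -0.04, and the summed level of the 11 was 248 FPKM in *ifc* and 261 FPKM in WT. The receptor kinase GRMZM2G004330, under the FPKM limit, had 0.435 FPKM in *ifc* and 0.218 FPKM in WT. The most abundant was GRMZM2G173747, of the family named for the pollen allergen Ole e 1 and extensin, with 92.3 FPKM in *ifc* and 97.4 FPKM in WT. The matches to LRX1, a leucine-rich repeat extensin that shapes root hairs in *Arabidopsis*, were GRMZM2G082823 with 29.1 FPKM in *ifc* and 29.2 FPKM in WT, and GRMZM5G805485 with 26.7 FPKM in *ifc* and 23.8 FPKM in WT. The member just outside the limit on the lower side was GRMZM2G123996, a pistil-specific extensin-like protein by its description, with 7.96 FPKM in *ifc* and 11.8 FPKM in WT, 1.48-fold lower. The only row described as extensin alone, GRMZM2G120182, was at 0.501 FPKM in *ifc* and 0.588 FPKM in WT, the lowest level of the type outside the receptor kinases. The 6 receptor kinases of this type are proline-rich and extensin-like by their descriptions, which was not checked in their sequences, and some of them match PERK1 of *Arabidopsis*. They had a median log2 ratio of -0.11 over the 4 with an FPKM above 2, and the most abundant, GRMZM2G416308, had 54.2 FPKM in *ifc* and 52.5 FPKM in WT.

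The APG-like members are described as anther-specific proline-rich proteins, and all 7 carry the ester hydrolase term. APG proteins belong to the GDSL lipases, a large plant family. GRMZM2G044882 (chromosome 4 at 140010605 to 140012616, plus strand) had 181 FPKM in *ifc* and 98.6 FPKM in WT, 1.84-fold higher, and its difference of 82.7 FPKM was larger than that of any fasciclin-like gene. The next most abundant, GRMZM2G062577, had 60.3 FPKM in *ifc* and 58.2 FPKM in WT. GRMZM2G045215 was as level, at 44.6 FPKM in *ifc* and 44.2 FPKM in WT. The type's summed level of 317 FPKM in *ifc* and 230 FPKM in WT thus differed through 1 row. GRMZM2G099802, a match to the lipase LTL1, had 24.5 FPKM in *ifc* and 22.8 FPKM in WT, and the other APG-like rows were at 3.09 FPKM or less. Anther markers were low in the same samples, where the matches to AMS, MYB103 and MS2 summed to 4.83 FPKM in *ifc* and 4.39 FPKM in WT and the AMS match was at 0.452 FPKM in *ifc* and 0.119 FPKM in WT.

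The proline-rich proteins were the type with the largest number of members lower in *ifc*, while by share 3 of the 4 hydroxyproline-rich rows were lower. Of the 14 with an FPKM above 2, 4 were higher (28.6%) and 10 lower, 1 of them past the fold. Over all rows with such an FPKM, 45.9% were higher at any size, while 4.13% were higher and 2.55% lower past the fold. The median log2 ratio of the 14 was -0.16. The most abundant of all members was GRMZM2G104876, a glycine- and proline-rich protein, with 504 FPKM in *ifc* and 467 FPKM in WT. GRMZM2G133175 had 93.9 FPKM in *ifc* and 112 FPKM in WT, and GRMZM2G359102 had 89.7 FPKM in *ifc* and 106 FPKM in WT. The matches to PRP2 were led by GRMZM2G114356, with 49.3 FPKM in *ifc* and 38.1 FPKM in WT, 1.29-fold higher. Since the most abundant row was higher and others lower, the summed level was nearly equal at 865 FPKM in *ifc* and 869 FPKM in WT.

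A group of 5 proline-rich members share the description of a proline-rich protein of the same mass, to which that of GRMZM2G304378 adds hybrid proline-rich protein. Hybrid proline-rich proteins are small secreted proteins with a proline-rich stretch and a cysteine-rich end. All 5 had a lower FPKM in *ifc*, which was noticed after the values were seen. Over all rows with an FPKM above 2, 45.9% were higher and the rest mostly lower. GRMZM2G031354 (chromosome 10 at 141387674 to 141388857, plus strand) was the single member past the fold on the lower side, with 1.73 FPKM in *ifc* and 4.10 FPKM in WT, 2.37-fold lower, and it met the FPKM limit through WT alone. GRMZM2G304378, with the RefSeq synonym hyp1, had 23.1 FPKM in *ifc* and 33.2 FPKM in WT, 1.44-fold lower. GRMZM2G372074 had 17.4 FPKM in *ifc* and 24.8 FPKM in WT, 1.42-fold lower. GRMZM2G345700 was close to level, at 16.1 FPKM in *ifc* and 17.4 FPKM in WT. GRMZM2G372102, a match to AZI1, which acts in systemic immunity in *Arabidopsis*, stayed under the FPKM limit at 0.743 in *ifc* and 1.89 in WT. Its ratio, 2.55-fold lower, was the widest of the 5. The 5 summed to 59.1 FPKM in *ifc* and 81.4 FPKM in WT, so their shared direction rested on differences that mostly stayed within 1.5-fold.

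The hydroxyproline-rich glycoproteins were level, with a summed 99.8 FPKM in *ifc* and 106 FPKM in WT over 4 rows, all above 10 FPKM. GRMZM2G152549 had 47.4 FPKM in *ifc* and 53.7 FPKM in WT, GRMZM5G856966 had 21.4 FPKM in *ifc* and 22 FPKM in WT, and GRMZM2G120173 had 17.5 FPKM in *ifc* and 16.8 FPKM in WT. Among the glycine-rich cell wall proteins, GRMZM2G109959 had 16.7 FPKM in *ifc* and 12.1 FPKM in WT, 1.38-fold higher. GRMZM2G149446 had 3.90 FPKM in *ifc* and 3.70 FPKM in WT. GRMZM2G122276 had the widest ratio of any member, 6.51-fold, at 1.86 FPKM in *ifc* and 0.285 FPKM in WT, and was not counted because neither value reached 2 FPKM. It was 1 of 11 members at or under that limit, whose FPKM ran from 0.218 to 1.89 and of which 8 were higher in *ifc*. At such levels and without replicates these ratios were not read further.

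**Figure D4:**
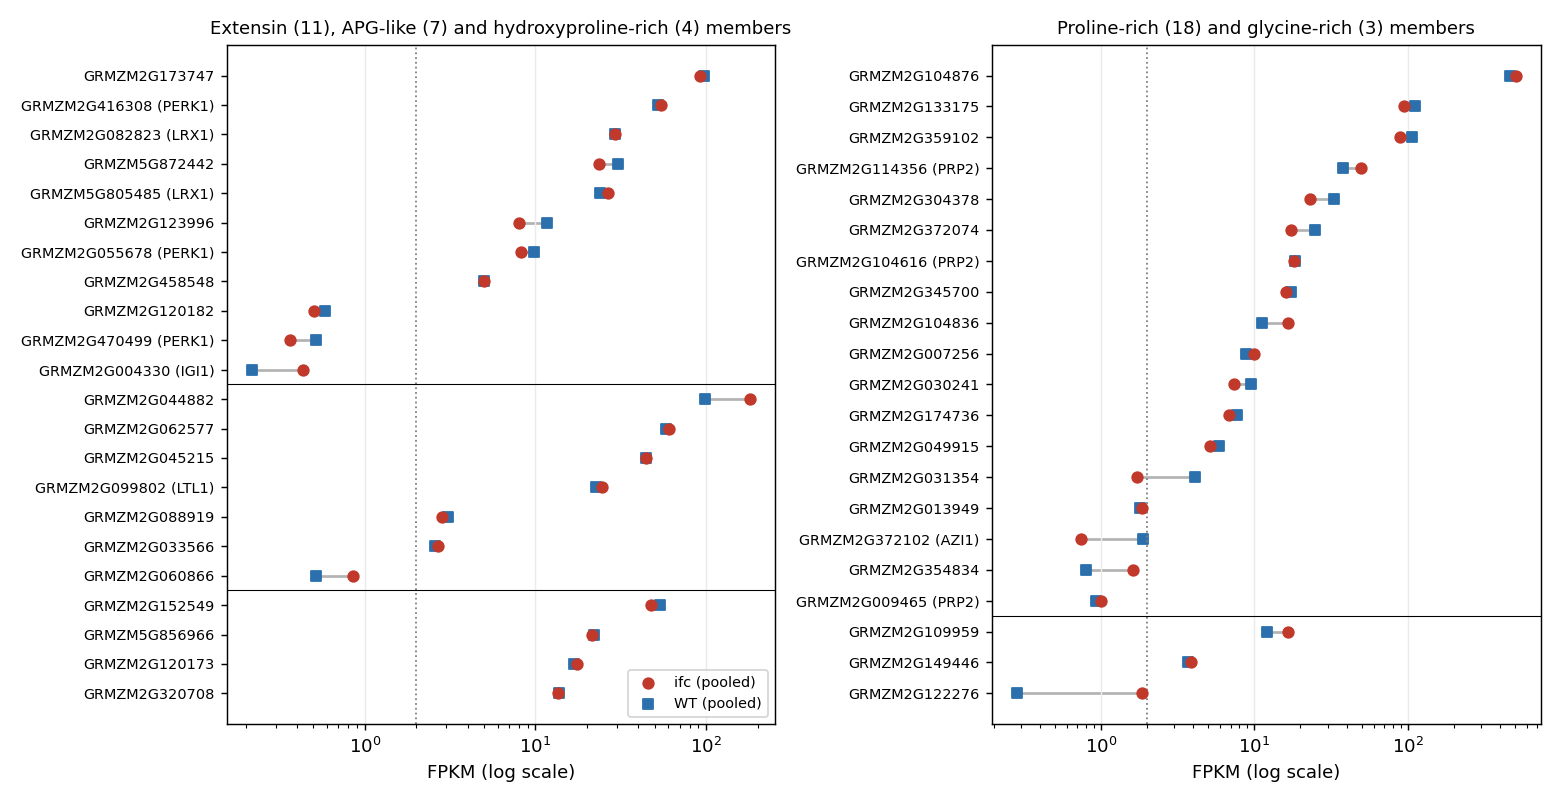
FPKM on log axes of the extensin, APG-like and hydroxyproline-rich members (left panel, separated by lines) and of the proline-rich and glycine-rich members (right panel) in pooled *ifc* (circles) and pooled WT (squares), with dotted lines at 2 FPKM. Most rows lie close to equal, and the rows past the fold above 2 FPKM are GRMZM2G044882, at 181 in *ifc* and 98.6 in WT, and GRMZM2G031354, at 1.73 in *ifc* and 4.10 in WT.

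Members within 50000 bp of each other formed 4 pairs, of which 3 lay on the same side and 1 did not. On chromosome 8, GRMZM2G025240 and the FLA6 match GRMZM2G001514 lie 1415 bp apart on the plus strand, and the first was 2.1-fold higher in *ifc* while the second was at 0.932 of its WT level. On chromosome 6, GRMZM2G104836 lies 775 bp from GRMZM2G104876, and it was the member just outside the limit on the higher side, with 16.6 FPKM in *ifc* and 11.3 FPKM in WT, 1.47-fold higher. Its abundant neighbour was 1.08-fold higher. The pair GRMZM2G372102 and GRMZM2G372074 on chromosome 2, 1399 bp apart, were both lower in *ifc*, and the pair GRMZM2G109959 and GRMZM2G122276 on chromosome 5, 17983 bp apart, were both higher, by the values given above. GRMZM2G104836 also has a second row without annotation, at 2.32 FPKM in *ifc* and 3.14 FPKM in WT, so the rows of this gene differ in direction. The rows next to the 10 members past the fold gave 20 neighbours, of which 16 had an FPKM above 2. Of these, 1 was higher and 0 were lower past the fold, where 4.13% of all such rows were higher and 2.55% lower. The higher row was GRMZM2G175243, which lies 158750 bp before GRMZM2G144610 and had 2.26 FPKM in *ifc* and 1.28 FPKM in WT. The nearer neighbour of GRMZM2G144610, GRMZM5G844143, lies 6925 bp after it and was lower, with 117 FPKM in *ifc* and 173 FPKM in WT. Reads of 7 members could overlap a gene on the opposite strand, among them GRMZM2G372074 and GRMZM2G177142, and none of the 10 past the fold was among these.

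Other genes of the pathway encode the enzymes that build the sugar chains. Prolyl 4-hydroxylases make the hydroxyproline, galactosyltransferases start the arabinogalactan chain, further glycosyltransferases extend or cap it, and arabinosyltransferases decorate extensins. Of 39 rows listed, 35 had an FPKM above 2, of which 0 were higher and 1 was lower past the fold, where 4.13% of all rows were higher and 2.55% lower. They had a median log2 ratio of 0.01 and a summed level of 601 FPKM in *ifc* and 607 FPKM in WT. The 1 lower row was GRMZM2G063133, a match to a glucuronosyltransferase that caps arabinogalactan chains, with 10.6 FPKM in *ifc* and 15.9 FPKM in WT, just past 1.5-fold lower. The prolyl 4-hydroxylases had a median of 0.04, and the widest of them, GRMZM5G855891, had 26.3 FPKM in *ifc* and 18.3 FPKM in WT. At any size, 45.9% of all rows with an FPKM above 2 were higher in *ifc*. The hydroxyproline galactosyltransferases had a median of 0.13, with 7 of 10 rows higher. The enzymes that extend or cap the arabinogalactan chain had a median of -0.25, with 5 of 7 rows lower. Of these, GRMZM2G043310, GRMZM2G423476 and GRMZM2G150323 share the glucuronosyltransferase match of GRMZM2G063133. The remaining lower row, GRMZM2G144873, is described as a galactosyltransferase family protein and had 66.1 FPKM in *ifc* and 68.5 FPKM in WT. The extensin arabinosyltransferases had a median of -0.18, with 6 of 8 rows lower. The match to XEG113, an extensin arabinosyltransferase of *Arabidopsis*, was GRMZM2G011912 with 7.65 FPKM in *ifc* and 9.46 FPKM in WT.

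Of the carpel and ovule marker rows, 9 of 14 were at 100 FPKM or more in *ifc* and in WT. All of these 9 were matches to SEP3, SHP2, AG or CRC. The STK match GRMZM2G001139 was low, at 4.71 FPKM in *ifc* and 5.45 FPKM in WT. The 14 rows summed to 3017 FPKM in *ifc* and 3314 FPKM in WT. Of the 14, 13 were lower in *ifc*, and the median log2 ratio of the 14 was -0.15. The INO match GRMZM2G046829 was also low and was the 1 row past the fold, at 2.5 FPKM in *ifc* and 4.51 FPKM in WT. Leaf markers summed to 89.3 FPKM in *ifc* and 103 FPKM in WT. Over all rows with an FPKM above 2, 45.9% were higher in *ifc* at any size and 2.55% were lower past the fold. Ribosomal protein rows with such an FPKM were higher in 155 of 185 cases, with a median of 0.17. The part of these shifts in the members' differences was not tested, and in bulk ovaries fewer cells of a type and less RNA per cell cannot be told apart.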

How the data were processed

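RNA was sequenced from 3 *ifc* and 3 WT ovary libraries. Per the paper's methods, ribosomal RNA was removed and the trimmed reads were aligned to B73 RefGen_v3 with TopHat2. The authors kept exonic reads, pooled the 3 libraries of a phenotype, and made the deposited FPKM with Cufflinks and Cuffdiff under quartile normalization. Bias was corrected and reads with several places were weighted over them, so paralogs can share reads. The table's other 6 value columns hold the authors' own comparison (fold, log2, direction, p, q and a significance mark) and were not used. With 1 pooled value per phenotype, no test or error could be given. The paper's supplement lists mapped reads per library, fewer in *ifc* than in WT for each replicate number, and these were not used.

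From the FPKM, the ratio of *ifc* to WT and log2 of (FPKM + 1) ratios were computed, and rows were counted past 1.5-fold with an FPKM above 2 in *ifc* or WT. The counting step was run on values made from WT by exact 2-fold changes without noise, which checks the code alone. Members and lists were chosen with earlier results of these data known. The rule names every member past the fold, the 3 most abundant of each type, those next to the limit, neighbours of a member past the fold, and GRMZM2G144610. Other genes named were chosen after their values were seen or from the pathway and marker lists. RefSeq synonyms (Zm-B73-REFERENCE-NAM-5.0) matched 55 members, and 9 had no match. Of 12 alternatives, 10 were planned and 2 were added after the data were seen. Python 3.11.15, numpy 2.4.6, pandas 2.3.3 and matplotlib 3.10.9 were used.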

Additional observations from a re-analysis of the deposited data

How the results depend on the processing

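The 9 members higher past the fold in *ifc* were also among those counted under each of the 3 other scalings, and their number was between 8 and 13 under all alternatives but 3. It was 2 with a 2-fold limit, 55 with equal totals and 4 with members found by description alone, where GRMZM2G025240, GRMZM2G144610, GRMZM2G065718, GRMZM2G022931 and GRMZM2G050286, found by symbol only, are not members. The fasciclin-like count of 7 became 2, 17 and 3 under these. The count of 1 lower member was 0 with a minimum of 10 FPKM, with equal totals and with members found by symbol alone, and 2 with no minimum and with equal totals without GRMZM2G070931. Under that scaling the share of all rows past the fold that were higher was 52.2%, against 61.8% as deposited, 65.8% with the median ratio of all rows set to 1, and 99.8% with equal totals.

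The members' median of 0.0141 turned to -0.0293 with equal totals without GRMZM2G070931 and to -0.0037 by description alone. It was 0.0582 with a minimum of 10 FPKM, 0.0422 with no minimum, 1.0854 with equal totals, 0.0364 centred on all rows, 0.2346 by symbol alone, and 0.0091 without receptor kinases and APG-like rows. The fasciclin-like median of 0.3488 stayed positive under every alternative run, at 0.4766 with a minimum of 10 FPKM, 0.2346 with no minimum, 0.3845 with FPKM + 0.1, 1.3157 with equal totals, 0.3131 without GRMZM2G070931 in them, 0.3675 centred, 0.1998 by description alone and 0.2694 without GRMZM2G144610. The log2 ratio of each of the 10 members past the fold kept its sign under the 4 other settings of scale or added constant. No paired analysis was possible because the table has 1 pooled value per phenotype, and leaving out a library was not possible for the same reason. Without replicate values or read counts per row, the error of low values is not known.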
